A study of Mus musculus with 6 samples.

Results

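Medium conditioned by PC3M-LN4 cells was compared with medium conditioned by PC3 cells for its association with gene expression in the lungs of mice that received it. The comparison used 4 of the 6 arrays of the study: the 2 lungs of the LN4 group (replicates 1 and 3) and the 2 lungs of the PC3 group (replicates 4 and 5), as the sample labels name them. PC3 is a human prostate cancer cell line, and PC3M-LN4 is a more metastatic derivative of it. All mice were C57BL/6, aged 8 weeks, and over 7 days each was injected daily with 100 uL into the peritoneum. Lungs of the Control group (replicates 2 and 4), given RPMI culture medium in place of conditioned medium, are shown beside the comparison. Whole lungs were minced and extracted together, so all cell types of the organ are mixed in each array. The design text gives 2 mice per group. The labels do not say whether the replicate numbers mark separate cages, batches of medium or days, so p-values measure only the spread between these samples. From what is known of the study, the question was how a strongly and a weakly metastatic tumour condition the lung at a distance.

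Tumours can alter a distant organ through secreted proteins before any tumour cell arrives there. In such a lung, fibronectin, the calgranulins S100A8 and S100A9 and recruited myeloid cells are known to favour the growth of arriving cells. Thrombospondin-1, a matrix glycoprotein encoded by Thbs1, restrains the growth of vessels and metastases and binds the receptors CD36 and CD47. Prosaposin, encoded by Psap, is a secreted and lysosomal precursor of the saposins, which help to degrade sphingolipids, and tumour prosaposin is known to induce thrombospondin-1 in host cells.

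Values are log2 values from RMA, a procedure that corrects, equalises and summarises the probes of all arrays together, so a difference of 1 is a 2-fold difference. Per-array values are given for LN4 replicates 1 and 3, PC3 replicates 4 and 5 and Control replicates 2 and 4, in this order. A gene is called non-overlapping where both LN4 lungs lay above both PC3 lungs or both lay below. Levels are not set against each other between genes, since probes differ in brightness.

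The arrays carried the lung label in their defining genes. Sftpc, surfactant protein C of alveolar type 2 cells, was at 13.91 and 13.87 in LN4 lungs, 13.86 and 14.04 in PC3 lungs and 14.03 and 14.02 in Control lungs. Scgb1a1, the secretoglobin of club cells, was at 13.76 and 13.64 in LN4 lungs and at 13.59 and 13.94 in PC3 lungs. Detected probe sets made up 35.4% of those in the chip report in LN4 replicate 1 and 39.8% in PC3 replicate 4, against 46.1% in LN4 replicate 3 and 50.9% in PC3 replicate 5. LN4 replicate 1 with PC3 replicate 4, and LN4 replicate 3 with PC3 replicate 5, are thus the pairs nearest in detection. They are called detection-matched below, although detection was not equal in them. In both pairs the LN4 lung had the lower share of detected probe sets. Its mean raw intensity was lower too, at 289.6 against 337.0 and 440.4 against 521.7. LN4 replicate 3 correlated with the other arrays at 0.954 to 0.963 across probe sets, and the other arrays among each other at 0.978 to 0.994. LN4 replicate 3 and, less so, PC3 replicate 4 held genes of stratified squamous epithelium that were dim in the other lungs, and LN4 replicate 3 also held genes of skeletal muscle.

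No probe set passed the test between LN4 and PC3 lungs. In limma, 0 of 21330 probe sets (0.0%) had an adjusted p under 0.05, and the smallest adjusted p was 0.842. At an unadjusted p under 0.05 in limma, 470 probe sets (2.2%) were higher and 624 (2.93%) were lower in LN4 lungs. The count moved with single arrays: it was 715 without LN4 replicate 1, and 2593 when LN4 replicate 3 and PC3 replicate 4 were both left out, where the spread comes from the Control lungs alone and the lone arrays are assumed to vary like them. Without a call, genes are described below by their values, and a p that missed the threshold does not show that the lungs were alike.

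The pairs of lungs differed in unlike ways. The SD over probe sets of LN4 replicate 1 minus PC3 replicate 4 was 0.33, and that of LN4 replicate 3 minus PC3 replicate 5 was 0.68. These differences share no array, and across 21330 probe sets, which are not independent replicates, they correlated at a Pearson coefficient of -0.05 and a Spearman coefficient of 0.14. For LN4 replicate 1 minus PC3 replicate 5 and LN4 replicate 3 minus PC3 replicate 4 the coefficients were -0.14 and -0.22. All arrays were normalised together, and the correlations are descriptions of these 4 arrays.

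Differences that rest on neither LN4 replicate 3 nor PC3 replicate 4 alone were sought as probe sets in which each of the 4 LN4-to-PC3 pairs differed at least 1.5-fold in the same direction. Of the tested probe sets, 26 (0.122%) were higher and 39 (0.183%) were lower in LN4 lungs by this measure. They stood for 22 and 35 named genes, and with each gene taken by its brightest probe set 16 (0.0941%) and 31 (0.182%) genes met the measure. Of these probe sets, 15 higher and 28 lower reached the 95th percentile of the negative control probes, 7.56 on average, in the higher group. With 1 array left out, fewer pairs had to pass, and 249 to 1139 probe sets were higher and 119 to 817 lower. At the looser measure of non-overlap, 2421 probe sets (11.4%) were higher and 3870 (18.1%) lower, and for genes, each by its brightest probe set, 1754 of 17011 (10.3%) were higher and 3396 (20.0%) lower. The mean was higher in LN4 lungs for 45.2% of genes and lower for 54.8%, with a median difference of -0.03, and over probe sets these shares were 47.8% and 52.2%.

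**Figure D1:**
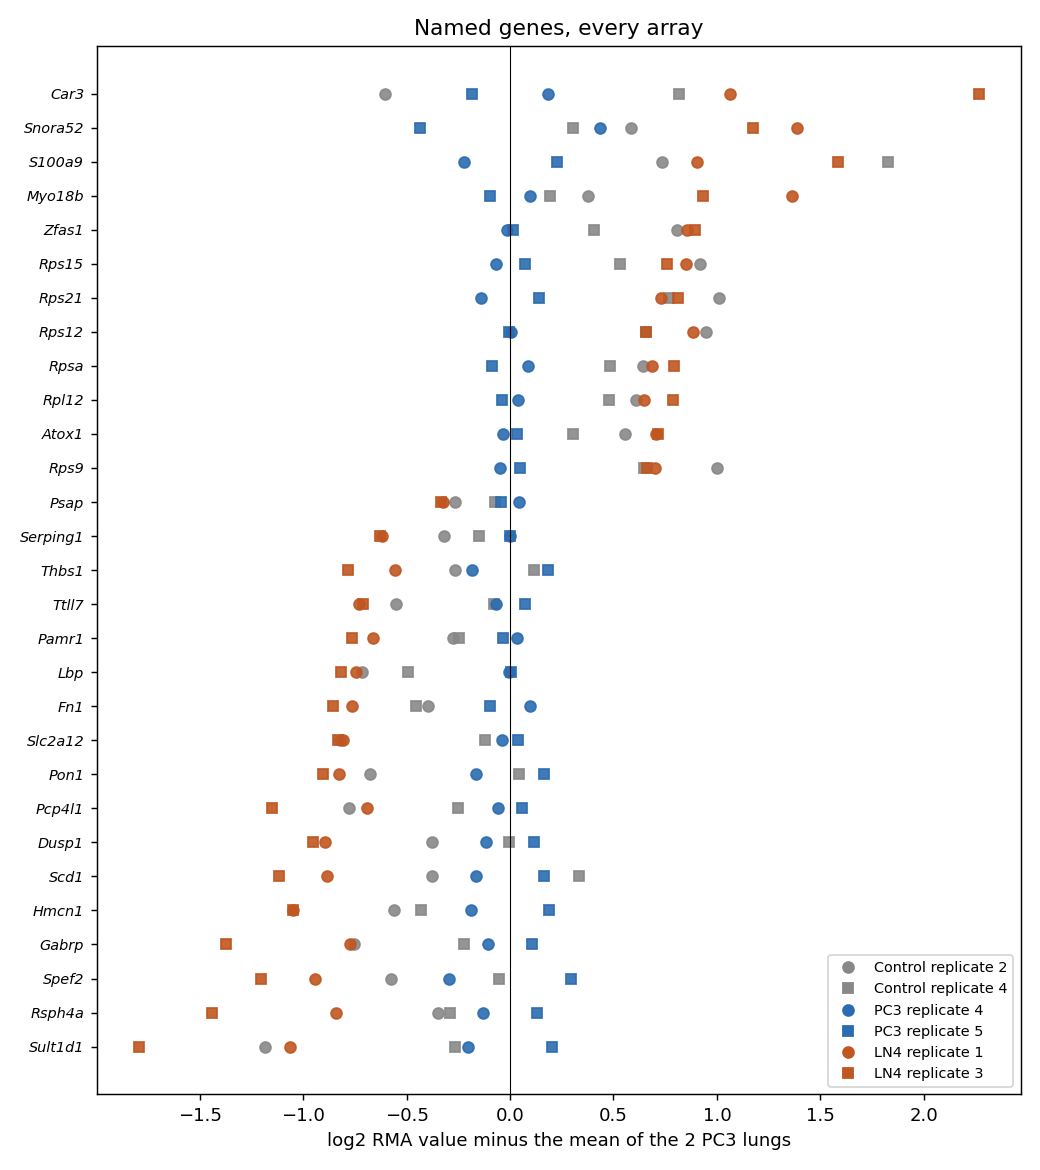
Each row is 1 named gene and each point 1 array, plotted as its log2 RMA value minus the mean of the 2 PC3 lungs, in orange for LN4, blue for PC3 and grey for Control lungs. In all 29 genes both LN4 lungs lie on the same side of both PC3 lungs, which is how all but Thbs1 and Psap were chosen, and the Control lungs lie at varying distances between and beyond them.

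Genes of the cytoplasmic ribosome were higher in LN4 than in PC3 lungs. Of 62 tested ribosomal protein genes, 60 had a higher mean and 2 a lower one, and 41 (66.1%) were non-overlapping and higher, against 10.3% of all genes. The median difference was 0.41, and no member was non-overlapping and lower. By pair, the median was 0.42 for LN4 replicate 1 minus PC3 replicate 4 and 0.44 for LN4 replicate 3 minus PC3 replicate 5, the detection-matched pairs. It was 0.20 for LN4 replicate 1 minus PC3 replicate 5, where 42 of 62 members were higher, and 0.63 for LN4 replicate 3 minus PC3 replicate 4, where 62 of 62 were. The median level of the list was 11.40 and 11.68 in LN4 lungs, 11.01 and 11.27 in PC3 lungs and 11.45 and 11.47 in Control lungs. Both PC3 lungs thus lay below the 4 other lungs on this median.

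The 6 ribosomal protein genes with the widest gap between LN4 and PC3 lungs are shown first by their promoters. The windows are RefSeq sequence of GRCm38.p6, from 70 bases before to 30 bases after a start of transcription, printed 5′ to 3′ on the strand of the gene. Rps12 and Rps9 are shown at the start of an annotated transcript that is not the outermost of the gene. Capitals mark CGGAAG, or its reverse complement CTTCCG, the core bound by ETS factors, and CTTTTC on the strand of the gene, a pyrimidine run of the kind with which messenger RNAs of ribosomal proteins are known to begin. CTTTTC was marked at any position, and no marked run begins at the start of transcription shown. Both motifs were chosen after the windows had been read. The windows are shown because these genes were higher together and their promoters are known to share such features. Windows and probe sets were matched by gene name alone. Whether the probe sets that gave the values lie at these loci was not checked.
Rps15: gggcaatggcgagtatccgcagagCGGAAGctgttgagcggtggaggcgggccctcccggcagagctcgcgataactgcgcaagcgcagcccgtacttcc
Rps12: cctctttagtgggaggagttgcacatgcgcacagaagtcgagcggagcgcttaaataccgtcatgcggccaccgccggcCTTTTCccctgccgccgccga
Rpl12: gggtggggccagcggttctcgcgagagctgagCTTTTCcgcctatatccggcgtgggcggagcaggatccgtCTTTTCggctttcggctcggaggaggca
Rps9: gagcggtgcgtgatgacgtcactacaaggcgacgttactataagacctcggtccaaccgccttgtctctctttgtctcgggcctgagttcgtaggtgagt
Rpsa: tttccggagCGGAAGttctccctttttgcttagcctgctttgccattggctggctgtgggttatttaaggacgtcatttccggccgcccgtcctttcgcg
Rps21: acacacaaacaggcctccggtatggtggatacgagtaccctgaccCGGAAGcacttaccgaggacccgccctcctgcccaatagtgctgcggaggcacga

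In GRCm38.p6 these windows lie at chr10:80292361-80292460 (plus strand) for Rps15, chr10:23787180-23787279 (minus strand) for Rps12, chr2:32961642-32961741 (plus) for Rpl12, chr7:3703971-3704070 (plus) for Rps9, chr9:120127696-120127795 (plus) for Rpsa and chr2:180257309-180257408 (plus) for Rps21. Rps15, Rpsa and Rps21 each held 1 CGGAAG in the printed window, Rps12 held 1 CTTTTC and Rpl12 held 2. Rps9 held neither. In RefSeq windows of 300 bases, 46 of the 62 listed genes were matched by 54 windows. CGGAAG on either strand was present in 63.0% of these 54 windows and in 16.9% of all 32851. CTTTTC on the strand of the gene, at any position in the window, was present in 22.2% and 11.4%. A match describes the letters of the window and no binding.

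The genes themselves were close within each group. Rps15, a protein of the small ribosomal subunit, was at 10.68 and 10.59 in LN4 lungs, 9.76 and 9.90 in PC3 lungs and 10.75 and 10.36 in Control lungs, a difference of 0.80 between LN4 and PC3 (SE 0.20, adjusted p = 0.842 in limma, as for every named gene). Its brightest probe set gave 12.29 and 12.26 in LN4 against 11.66 and 11.65 in PC3 lungs. On both probe sets the replicates of LN4 and of PC3 differed far less from each other than these groups did. The Control lungs lay beside the LN4 lungs.

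Rps12, also of the small subunit, was at 11.77 and 11.54 in LN4, 10.89 and 10.88 in PC3 and 11.83 and 11.54 in Control lungs (difference 0.77, SE 0.19). All 13 of its probe sets were non-overlapping and higher in LN4, by 0.20 to 0.77. Rpl12, of the large subunit, was at 11.78 and 11.92 in LN4, 11.17 and 11.09 in PC3 and 11.74 and 11.61 in Control lungs (difference 0.72, SE 0.17). Of the 8 probe sets of Rpl12, 7 were non-overlapping and higher, and the differences ran from 0.17 to 0.72. On the probe sets shown for Rps12 and Rpl12 the Control lungs lay within or near the range of the LN4 lungs, and the PC3 lungs lay below.

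Rps9 was at 11.20 and 11.16 in LN4, 10.45 and 10.55 in PC3 and 11.50 and 11.15 in Control lungs (difference 0.67, SE 0.19). Rpsa, which encodes the ribosomal protein SA that also serves as a laminin receptor, was at 10.90 and 11.01 in LN4, 10.30 and 10.13 in PC3 and 10.86 and 10.70 in Control lungs (difference 0.74, SE 0.18). Rps21 was at 9.06 and 9.14 in LN4, 8.19 and 8.47 in PC3 and 9.34 and 9.10 in Control lungs (difference 0.77, SE 0.19). The values of each gene are those of its probe set with the widest gap. On these probe sets none of the genes overlapped between LN4 and PC3 lungs, and all had both PC3 lungs lowest of the 6. All 5 probe sets of Rpsa had a higher mean in LN4 lungs, by 0.28 to 0.74, and 4 of the 5 were non-overlapping and higher. Ribosomal protein genes have many processed pseudogenes and near-identical copies, so the share of each copy in a probe set is uncertain.

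Small RNAs of the nucleolus and of Y particles were higher in LN4 lungs by a median of 0.46. Of 66 tested members, 56 had a higher mean, and 27 (40.9%) were non-overlapping and higher, against 10.3% of all genes, while 2 were non-overlapping and lower. Snora52, a small nucleolar RNA that guides pseudouridylation, was at 9.39 and 9.18 in LN4, 8.44 and 7.57 in PC3 and 8.59 and 8.31 in Control lungs (difference 1.28, SE 0.30). Its PC3 lungs differed from each other by more than its LN4 lungs. Rmrp, the RNA of a ribonuclease that processes ribosomal RNA, was at 12.49 and 11.65 in LN4 and at 10.84 and 11.30 in PC3 lungs. Only 23 of the 66 reached the negative-control level, and the pair medians ranged from 0.10 for LN4 replicate 3 minus PC3 replicate 4 to 0.72 for LN4 replicate 1 minus PC3 replicate 5.

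The widest gaps of all were in such dim RNAs. Snord1c, a box C/D small nucleolar RNA, was at 5.67 and 5.87 in LN4, 4.48 and 4.61 in PC3 and 5.55 and 5.30 in Control lungs, and was the one gene over 2-fold in all 4 pairs. Rny1, a Y RNA, was at 6.17 and 5.77 in LN4, 4.80 and 4.83 in PC3 and 6.28 and 6.02 in Control lungs. Both stayed under the negative-control level in every lung, although their LN4 and PC3 values were apart by 1.22 (SE 0.19) and 1.16 (SE 0.21). Other dim families also differed with the detection of the arrays: olfactory and vomeronasal receptor genes had a median of 0.50 for LN4 replicate 1 minus PC3 replicate 5 and 0.08 in both detection-matched pairs. The part of detection in the small RNA differences was not tested, and in the detection-matched pairs their medians were 0.59 and 0.40.

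Zfas1, a noncoding RNA that hosts small nucleolar RNAs, was at 8.72 and 8.76 in LN4, 7.85 and 7.88 in PC3 and 8.67 and 8.27 in Control lungs (difference 0.88, SE 0.20). The replicates of each conditioned-medium group were nearly equal, and both Control lungs lay above both PC3 lungs. Atox1, a copper chaperone, had the same layout at 9.87 and 9.88 in LN4, 9.13 and 9.20 in PC3 and 9.72 and 9.47 in Control lungs (difference 0.71, SE 0.18).

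Genes for other large complexes were higher in LN4 lungs by smaller amounts. Of 77 mitochondrial ribosomal proteins, 66 had a higher mean and 36 (46.8%) were non-overlapping and higher, against 10.3% of all genes, with a median of 0.21. Among them, Mrpl9 was at 8.20 and 8.29 in LN4 and 7.79 and 7.74 in PC3 lungs (difference 0.48, SE 0.18). Of 38 genes of the respiratory chain and ATP synthase, 34 had a higher mean and 20 (52.6%) were non-overlapping and higher, against 10.3% of all genes, with a median of 0.31. Ndufb9, a subunit of complex I, was at 8.66 and 8.84 in LN4, 8.12 and 8.10 in PC3 and 8.74 and 8.52 in Control lungs (difference 0.64, SE 0.18). Cox5a, a subunit of cytochrome c oxidase, was at 9.61 and 9.53 in LN4 and 9.23 and 8.90 in PC3 lungs (difference 0.51, SE 0.21). The pair medians of the respiratory list lay between 0.12 and 0.49, all on the same side.

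Proteasome genes leaned the same way in 3 of the 4 pairs. Of 27 members, 23 had a higher mean and 10 (37.0%) were non-overlapping and higher, against 10.3% of all genes, with a median of 0.25. The median was 0.47 and 0.28 with LN4 replicate 3 and 0.15 and -0.07 with LN4 replicate 1, so without LN4 replicate 3 and PC3 replicate 4 its sign turned. Psma7, a subunit of the core particle, was at 9.20 and 9.32 in LN4 and 8.80 and 8.81 in PC3 lungs (difference 0.46, SE 0.18). Histone cluster genes, 55 tested, had a higher mean in 50 and were non-overlapping and higher in 25 (45.5%), against 10.3% of all genes, with a median of 0.17. H1f2, a linker histone, was at 8.96 and 9.02 in LN4, 8.38 and 8.18 in PC3 and 8.99 and 9.12 in Control lungs (difference 0.71, SE 0.18), so its PC3 lungs were the lowest of the 6.

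**Figure D2:**
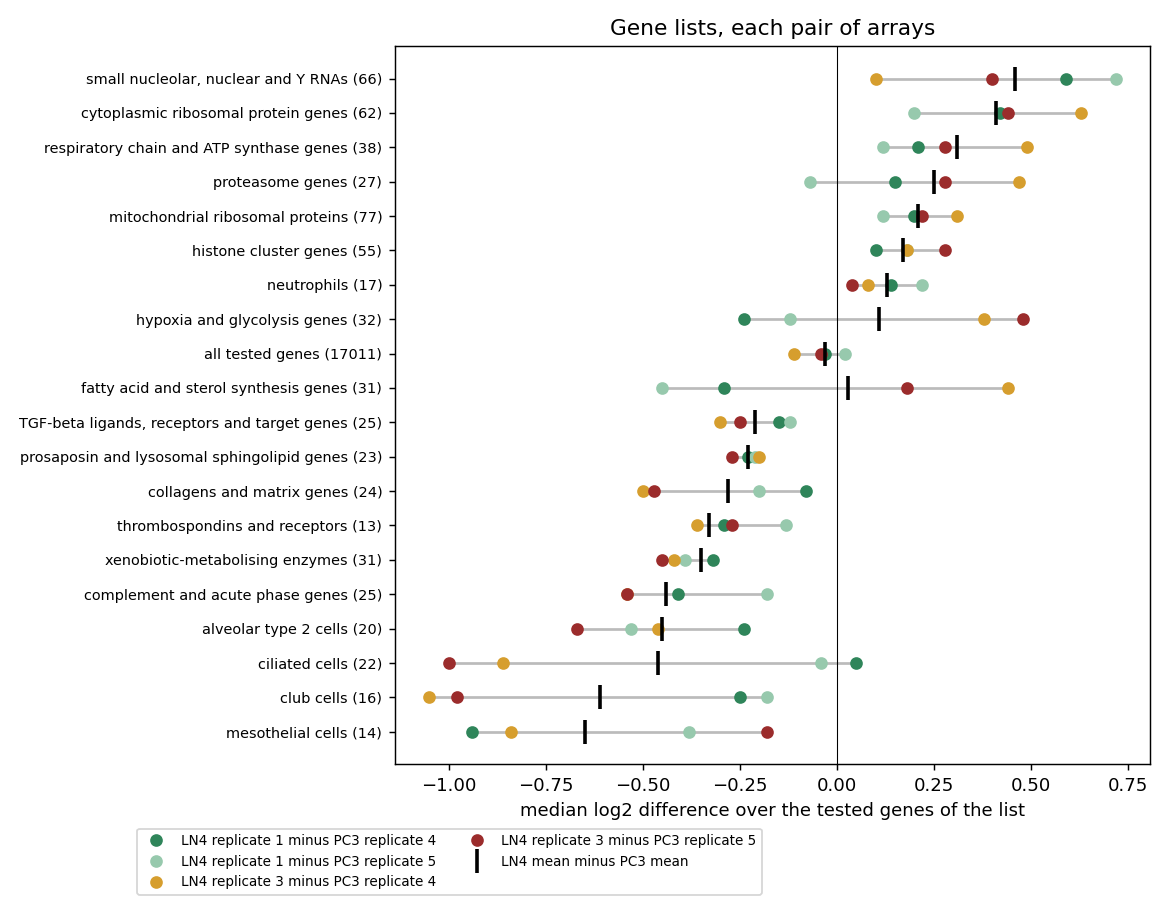
Each row is 1 gene list, with its number of tested genes in brackets; the dots give the median log2 difference over its genes in each of the 4 LN4-to-PC3 pairs of arrays, and the black bar the median difference of the group means. Ribosomal, mitochondrial ribosomal, respiratory chain, small RNA and histone lists lie above 0 in all 4 pairs, alveolar type 2, xenobiotic, complement, thrombospondin, lysosomal, TGF-beta, matrix, club cell and mesothelial lists lie below 0 in all 4, and hypoxia and fatty acid lists lie on both sides.

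Alveolar type 2 cells make surfactant and renew the alveolar epithelium. All 20 tested genes of these cells had a lower mean in LN4 than in PC3 lungs, and 16 (80.0%) were non-overlapping and lower, against 20.0% of all genes. The median difference was -0.45, and by pair it was -0.24 and -0.67 in the detection-matched pairs and -0.53 and -0.46 in the others. In whole lung, fewer cells of a type and less RNA per cell cannot be told apart. Scd1, the stearoyl-CoA desaturase that makes monounsaturated fatty acids, was at 11.05 and 10.82 in LN4, 11.77 and 12.10 in PC3 and 11.56 and 12.27 in Control lungs (difference -1.01, SE 0.28). Both LN4 lungs were the lowest of the 6.

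Chil1, a chitinase-like secreted protein, was at 11.57 and 11.25 in LN4, 12.12 and 12.18 in PC3 and 11.70 and 11.87 in Control lungs (difference -0.74, SE 0.19). Abca3, the lipid transporter of lamellar bodies, was at 9.88 and 9.61 in LN4, 10.27 and 10.51 in PC3 and 10.20 and 10.44 in Control lungs (difference -0.65, SE 0.20). Lamp3, a lamellar body membrane protein, was at 10.04 and 10.14 in LN4 and 10.46 and 11.13 in PC3 lungs (difference -0.70, SE 0.25). Abca3 was lowest in both LN4 lungs of all 6. The surfactant proteins themselves differed least: Sftpc by -0.06 (SE 0.17), Sftpa1 by -0.25 (SE 0.18) and Sftpb by -0.35 (SE 0.24), each under 1.5 times its standard error.

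Lipid synthesis as a whole did not follow Scd1. Of 31 genes of fatty acid and sterol synthesis, 16 had a higher and 15 a lower mean, and the median was 0.03. The median was -0.29 and -0.45 in the pairs with LN4 replicate 1 and 0.44 and 0.18 in those with LN4 replicate 3, so this list turned with the LN4 lung. Of the list, 8 members (25.8%) were non-overlapping and lower, against 20.0% of all genes, and Scd1 and the 3 that follow were among them. Scd2 was at 11.17 and 11.15 in LN4, 11.71 and 11.81 in PC3 and 11.22 and 11.63 in Control lungs (difference -0.61, SE 0.20). Fads1, a desaturase of polyunsaturated fatty acids, was at 9.02 and 8.77 in LN4 and 9.53 and 9.73 in PC3 lungs (difference -0.74, SE 0.22). Fasn, fatty acid synthase, was at 10.24 and 10.03 in LN4 and 10.54 and 10.73 in PC3 lungs (difference -0.51, SE 0.20).

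Enzymes that metabolise foreign compounds, which in the lung are abundant in club cells, were lower in LN4 lungs. Of 31 tested members, 24 had a lower mean, 19 (61.3%) were non-overlapping and lower, against 20.0% of all genes, and none was non-overlapping and higher, with a median of -0.35. The 4 pair medians lay between -0.32 and -0.45, a narrow range in which neither LN4 replicate 3 nor PC3 replicate 4 stood out. Sult1d1, a sulfotransferase, was at 8.17 and 7.44 in LN4, 9.03 and 9.44 in PC3 and 8.05 and 8.97 in Control lungs (difference -1.43, SE 0.37). Its Control lungs spanned almost the whole distance between the groups. Cyp2a5, a cytochrome P450, was at 9.98 and 9.24 in LN4, 10.56 and 10.60 in PC3 and 9.45 and 10.08 in Control lungs (difference -0.97, SE 0.31).

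Aldh1a1, an aldehyde dehydrogenase, was at 12.72 and 12.31 in LN4, 13.25 and 13.24 in PC3 and 12.68 and 13.04 in Control lungs (difference -0.73, SE 0.22). Fmo2, the flavin monooxygenase of lung, was at 11.74 and 11.84 in LN4, 12.41 and 12.33 in PC3 and 11.62 and 12.12 in Control lungs (difference -0.58, SE 0.21). For Cyp2a5, Aldh1a1 and Fmo2 the PC3 lungs were the highest of the 6. The Control lungs lay within or close to the range of the LN4 lungs for Cyp2a5. For Aldh1a1 and Fmo2 this held for Control replicate 2, while Control replicate 4 lay nearer to the PC3 lungs. Pon1, an esterase that hydrolyses lactones and oxidised lipids, was at 9.23 and 9.15 in LN4, 9.89 and 10.22 in PC3 and 9.38 and 10.10 in Control lungs (difference -0.87, SE 0.27).

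Complement and acute phase genes were also lower in LN4 lungs, with 22 of 25 means lower, 14 (56.0%) non-overlapping and lower, against 20.0% of all genes, and a median of -0.44. The pair medians were -0.41, -0.18, -0.54 and -0.54, the smallest for LN4 replicate 1 minus PC3 replicate 5. Lbp, the lipopolysaccharide-binding protein, was at 9.38 and 9.31 in LN4, 10.12 and 10.13 in PC3 and 9.41 and 9.63 in Control lungs (difference -0.78, SE 0.18). Serping1, the inhibitor of complement C1, was at 10.02 and 10.01 in LN4, 10.64 and 10.64 in PC3 and 10.32 and 10.49 in Control lungs (difference -0.62, SE 0.17). The replicates of both genes were nearly equal within LN4 and within PC3 lungs, and the Control lungs lay between the groups.

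C3, the central complement component, was at 11.30 and 11.11 in LN4, 12.00 and 11.71 in PC3 and 11.02 and 11.40 in Control lungs (difference -0.65, SE 0.22). Cfb, factor B of the alternative pathway, was at 8.53 and 8.43 in LN4, 9.22 and 8.97 in PC3 and 7.99 and 8.46 in Control lungs (difference -0.61, SE 0.22). For both genes the PC3 lungs stood above the 4 other lungs, and the LN4 and Control lungs overlapped or lay close to each other.

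**Figure D3:**
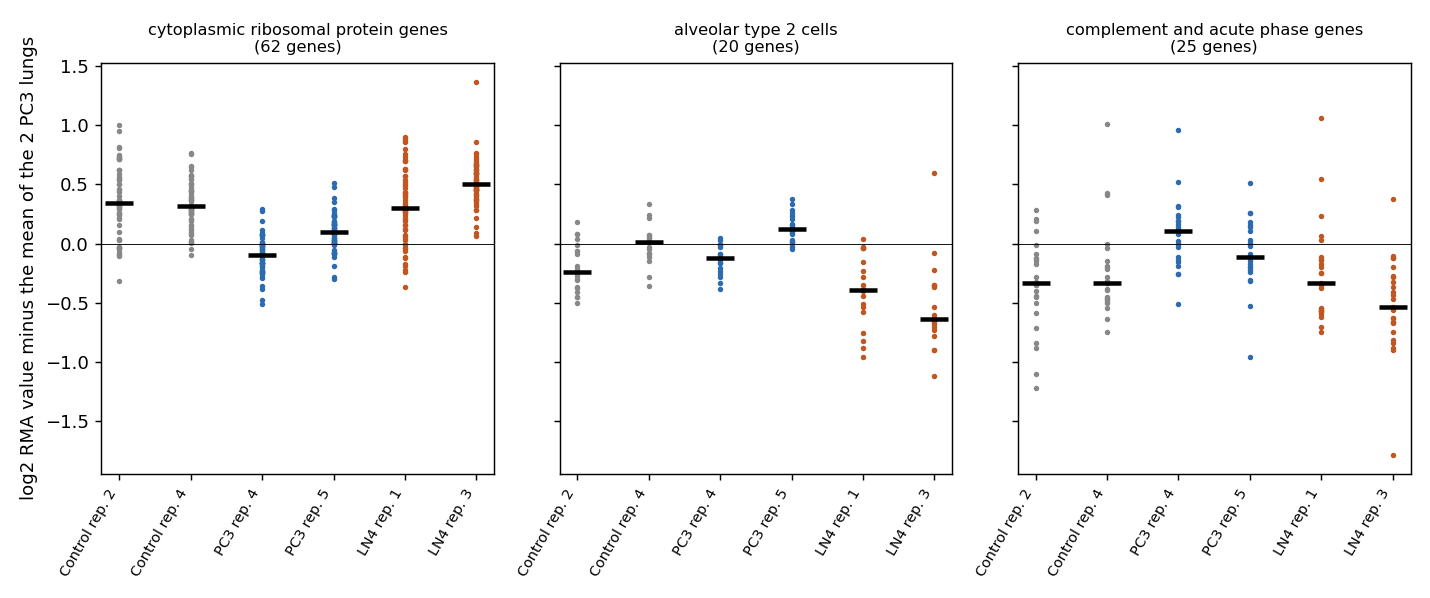
Each point is 1 gene in 1 array, as its log2 RMA value minus the mean of the 2 PC3 lungs, for the ribosomal protein, alveolar type 2 and complement lists, and black bars are medians over the genes. Ribosomal protein genes are lowest in the PC3 lungs, alveolar type 2 genes are lowest in the LN4 lungs, and complement genes lie lower in LN4 than in PC3 lungs.

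Thbs1 was lower in LN4 lungs. It was at 9.21 and 8.98 in LN4 replicates 1 and 3, 9.58 and 9.95 in PC3 and 9.50 and 9.88 in Control lungs, a difference of -0.67 (SE 0.23), or 1.59-fold, between LN4 and PC3. Both LN4 lungs were the lowest of the 6, and the PC3 and Control lungs overlapped. The adjusted p in limma was 0.842. Leaving out both LN4 replicate 3 and PC3 replicate 4 left 1 lung in each group and gave a difference of -0.73. The smallest of the 4 pair differences was -0.37, between LN4 replicate 1 and PC3 replicate 4.

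Of 13 thrombospondin and receptor genes, 9 had a lower mean and 8 (61.5%) were non-overlapping and lower, against 20.0% of all genes, with a median of -0.33. Thbs3, another thrombospondin of the matrix, was at 7.89 and 7.83 in LN4, 8.46 and 8.75 in PC3 and 8.23 and 8.31 in Control lungs (difference -0.75, SE 0.18). Adamts1, a secreted protease with thrombospondin repeats, was at 8.35 and 8.15 in LN4, 8.74 and 9.07 in PC3 and 8.91 and 9.28 in Control lungs (difference -0.66, SE 0.22). Thbs2 and Thbs4 stayed under the negative-control level, with differences of 0.16 (SE 0.27) and 0.17 (SE 0.24).

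The receptors of thrombospondin-1 lay in the same direction. Cd36, a scavenger receptor, was at 11.60 and 11.65 in LN4, 11.97 and 12.30 in PC3 and 11.83 and 12.12 in Control lungs (difference -0.51, SE 0.20). Cd47, which also signals to phagocytes through SIRPα, was at 10.20 and 10.13 in LN4, 10.49 and 10.72 in PC3 and 10.48 and 10.69 in Control lungs (difference -0.44, SE 0.19). For both receptors the LN4 lungs were the lowest of the 6 and PC3 and Control lungs were close. The list median was -0.13 for LN4 replicate 1 minus PC3 replicate 5 and -0.36 for LN4 replicate 3 minus PC3 replicate 4.

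Psap was at 11.99 and 11.98 in LN4, 12.36 and 12.27 in PC3 and 12.05 and 12.24 in Control lungs, a difference of -0.33 (SE 0.17, adjusted p = 0.842 in limma). The LN4 lungs were nearly equal and below all others, while Control replicate 2 lay close to them. Of 23 prosaposin and lysosomal sphingolipid genes, 19 had a lower mean and 13 (56.5%) were non-overlapping and lower, against 20.0% of all genes, with a median of -0.23. The 4 pair medians lay between -0.20 and -0.27. Sort1, sortilin, which carries prosaposin to lysosomes, was at 9.82 and 9.82 in LN4, 10.30 and 10.47 in PC3 and 9.96 and 10.33 in Control lungs (difference -0.56, SE 0.20). Npc1, the lysosomal cholesterol exporter, was at 9.03 and 9.08 in LN4 and 9.34 and 9.49 in PC3 lungs (difference -0.36, SE 0.19).

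Among genes known from premetastatic lungs, fibronectin and the calgranulins lay in opposite directions. Fn1, fibronectin, was at 9.51 and 9.42 in LN4, 10.37 and 10.18 in PC3 and 9.88 and 9.82 in Control lungs (difference -0.81, SE 0.17), so that the Control lungs lay between the conditioned-medium groups. Itga4, a subunit of a fibronectin receptor of myeloid cells, was at 7.72 and 7.45 in LN4, 8.20 and 8.43 in PC3 and 8.11 and 8.38 in Control lungs (difference -0.73, SE 0.20). Both LN4 lungs were again the lowest of the 6.

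S100a9 was at 7.79 and 8.47 in LN4, 6.66 and 7.11 in PC3 and 7.62 and 8.71 in Control lungs (difference 1.24, SE 0.40). S100a8, its partner in calprotectin, was at 7.57 and 8.05 in LN4, 6.32 and 7.03 in PC3 and 7.35 and 8.54 in Control lungs (difference 1.14, SE 0.43). In both genes the PC3 lungs were the lowest of the 6 and the Control lungs spanned the LN4 lungs. The PC3 values of both genes lay under the negative-control level of their arrays, 7.58 and 7.49, so the size of the difference is uncertain. Control replicate 2 in both genes and LN4 replicate 1 in S100a8 also lay under the level of their arrays. Other neutrophil genes did not all go with S100a8 and S100a9. Of the 17 neutrophil genes tested, 10 had a higher and 7 a lower mean, with a median of 0.13. Among these 17, 5 (29.4%) were non-overlapping and higher and 2 (11.8%) lower, against 10.3% and 20.0% of all genes. The 4 pair medians lay between 0.04 and 0.22, and only 5 of the 17 reached the negative-control level. Fpr1, the formyl peptide receptor of neutrophils and macrophages, was at 7.35 and 7.87 in LN4 and 8.31 and 8.23 in PC3 lungs (difference -0.66, SE 0.25). Its value in LN4 replicate 1 lay under the level of that array. Of all 25 premetastatic niche genes tested, 5 (20.0%) were non-overlapping and higher and 9 (36.0%) were non-overlapping and lower, against 10.3% and 20.0% of all genes.

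Matrix and growth factor genes were lower in LN4 lungs by modest amounts. Of 24 collagen and matrix genes, 21 had a lower mean and 12 of the 24 were non-overlapping and lower, against 20.0% of all genes, with a median of -0.28. Their pair medians were -0.08 and -0.20 with LN4 replicate 1 and -0.50 and -0.47 with LN4 replicate 3. Col14a1, a fibril-associated collagen, was at 7.92 and 7.90 in LN4, 8.53 and 8.29 in PC3 and 7.87 and 7.90 in Control lungs (difference -0.50, SE 0.18), so only the PC3 lungs stood apart. Hmcn1, hemicentin of basement membranes, was at 6.65 and 6.65 in LN4, 7.51 and 7.89 in PC3 and 7.14 and 7.27 in Control lungs (difference -1.05, SE 0.20). On this probe set the LN4 and Control values and PC3 replicate 4 lay under the negative-control level of their arrays, so the size of that difference is uncertain. A brighter probe set of Hmcn1, also over 1.5-fold in all 4 pairs, lay above that level in every lung. It gave 8.52 and 8.11 in LN4, 9.15 and 9.25 in PC3 and 8.70 and 8.89 in Control lungs (difference -0.89, SE 0.21). Of the 77 probe sets of Hmcn1, 47 were non-overlapping and lower.

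Of 25 genes of TGF-beta signalling, 21 had a lower mean and 9 (36.0%) were non-overlapping and lower, against 20.0% of all genes, with a median of -0.21. The median was -0.28 without LN4 replicate 1 and -0.11 without LN4 replicate 3. Tgfbr1, a receptor kinase of the pathway, was at 8.42 and 8.25 in LN4, 8.76 and 8.99 in PC3 and 8.40 and 8.59 in Control lungs (difference -0.54, SE 0.19). Tgfb1, its main ligand, was at 8.63 and 8.38 in LN4 and 8.73 and 8.75 in PC3 lungs (difference -0.23, SE 0.18). Of 20 CCN and YAP target genes, 17 had a lower mean and 11 (55.0%) were non-overlapping and lower, against 20.0% of all genes, with a median of -0.25. This median was -0.39 without LN4 replicate 1, -0.18 without LN4 replicate 3 and -0.11 with both LN4 replicate 3 and PC3 replicate 4 left out. Ccn1, a matricellular protein, was at 9.40 and 9.30 in LN4, 9.78 and 9.78 in PC3 and 10.36 and 10.43 in Control lungs (difference -0.43, SE 0.17). Both conditioned-medium groups lay below both Control lungs for this gene.

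Dusp1, a phosphatase that switches off MAP kinases, was at 10.18 and 10.12 in LN4, 10.96 and 11.19 in PC3 and 10.70 and 11.07 in Control lungs (difference -0.93, SE 0.20). Its LN4 lungs were nearly equal and lowest of the 6. Immediate early genes, to which it belongs, were split by their means, with 13 of 26 higher, 13 lower and a median of -0.03. Of the 26, 8 (30.8%) were non-overlapping and higher and 6 (23.1%) non-overlapping and lower, against 10.3% and 20.0% of all genes. Nr4a1, a nuclear receptor, was at 7.90 and 7.71 in LN4, 8.34 and 8.37 in PC3 and 8.79 and 9.20 in Control lungs (difference -0.55, SE 0.21). Egr1, a zinc finger factor, was at 7.28 and 7.24 in LN4 and 7.01 and 6.60 in PC3 lungs (difference 0.46, SE 0.22), under the negative-control level.

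The remaining named genes that were lower in LN4 lungs belong to several cell types. Gabrp, a GABA receptor subunit of airway epithelium, was at 10.10 and 9.50 in LN4, 10.77 and 10.98 in PC3 and 10.12 and 10.65 in Control lungs (difference -1.07, SE 0.28). Slc2a12, a glucose transporter, was at 7.45 and 7.43 in LN4, 8.22 and 8.30 in PC3 and 7.44 and 8.14 in Control lungs (difference -0.82, SE 0.25). In both genes 1 Control lung lay with the LN4 lungs and the other nearer to the PC3 lungs. Pcp4l1, a Purkinje cell protein relative, was at 8.47 and 8.01 in LN4, 9.10 and 9.22 in PC3 and 8.38 and 8.91 in Control lungs (difference -0.92, SE 0.25). Ttll7, a tubulin polyglutamylase, was at 7.62 and 7.64 in LN4, 8.28 and 8.42 in PC3 and 7.80 and 8.27 in Control lungs (difference -0.72, SE 0.21). Neither gene overlapped between LN4 and PC3 lungs. For Slc2a12 and Ttll7, LN4 replicate 1 lay under the negative-control level of its array, 7.69. For Slc2a12, Control replicate 2 also lay under the level of its array, 7.66. The size of the Slc2a12 and Ttll7 differences is thus uncertain. Pamr1, a secreted protease-like protein, was at 7.18 and 7.08 in LN4, 7.88 and 7.81 in PC3 and 7.57 and 7.60 in Control lungs. The difference was -0.72 (SE 0.17), with the Control lungs between the groups. Its LN4 lungs and Control replicate 2 lay under the negative-control level of their arrays.

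Among the named genes higher in LN4 lungs, Myo18b, an unconventional myosin of striated muscle, was at 7.97 and 7.54 in LN4, 6.70 and 6.51 in PC3 and 6.98 and 6.80 in Control lungs (difference 1.15, SE 0.21). Its PC3 and Control values lay under the negative-control level, so the size of the difference is uncertain. It was highest in LN4 replicate 1, and all 19 of its probe sets had a higher mean in LN4. Car3, a carbonic anhydrase of muscle and fat, was at 9.04 and 10.24 in LN4, 8.16 and 7.79 in PC3 and 7.37 and 8.79 in Control lungs (difference 1.67, SE 0.54). The LN4 lungs differed from each other by more than the nearer LN4 and PC3 lungs, and LN4 replicate 3 held many muscle genes. Of 18 adipocyte genes, 12 had a higher mean and 6 (33.3%) were non-overlapping and higher, against 10.3% of all genes, with a median of 0.30. Fabp4, the fatty acid-binding protein of fat cells, capillaries and macrophages, was at 7.98 and 7.28 in LN4 and 6.90 and 6.70 in PC3 lungs. The difference was 0.83 (SE 0.31). Its PC3 values and LN4 replicate 3 lay under the negative-control level of their arrays. The adipocyte median was 0.32 and 0.65 in the pairs with LN4 replicate 1, and -0.09 and 0.07 in those with LN4 replicate 3.

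The largest mean differences of all lists rested on LN4 replicate 3. Of 29 tested genes of stratified squamous epithelium, 29 had a higher mean in LN4 lungs, with a median of 2.20. That median was 4.11 and 5.47 in the pairs with LN4 replicate 3, and -0.63 and 0.33 in the pairs with LN4 replicate 1. Krt13, a keratin of internal squamous epithelia, was at 5.09 and 13.61 in LN4, 10.63 and 5.06 in PC3 and 5.16 and 4.63 in Control lungs, with an SE of 2.75. LN4 replicate 3 and PC3 replicate 4 thus stood above the 4 other lungs, and the groups overlapped. Of the 29 genes, 2 (6.9%) were non-overlapping and higher, against 10.3% of all genes.

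Skeletal muscle genes were high in LN4 replicate 3 alone. Of 24 tested members, 24 had a higher mean, with a median of 1.77. The pair medians were 3.41 and 3.46 with LN4 replicate 3 and -0.01 and 0.27 with LN4 replicate 1. Acta1, skeletal muscle actin, was at 6.87 and 12.04 in LN4 and 6.50 and 6.81 in PC3 lungs (difference 2.80, SE 1.40). Ckm, muscle creatine kinase, was at 6.47 and 11.12 in LN4 and 6.44 and 6.49 in PC3 lungs. Of the 24 genes, 9 (37.5%) were non-overlapping and higher, against 10.3% of all genes. Mylpf was among them, at 5.54 and 9.22 in LN4 and 4.93 and 4.74 in PC3 lungs.

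Airway cell genes were lower in LN4 replicate 3, and in LN4 replicate 1 only the ciliated cell genes were near PC3 levels. All 22 ciliated cell genes had a lower mean, with a median of -0.46, but the median was 0.05 and -0.04 in the pairs with LN4 replicate 1 and -0.86 and -1.0 in those with LN4 replicate 3. Foxj1, the master factor of motile cilia, was at 8.84 and 7.81 in LN4 and 8.59 and 8.58 in PC3 lungs. Of these genes 9 (40.9%) were non-overlapping and lower, against 20.0% of all genes. The club cell list had a median of -0.61. By pair it was -0.25 and -0.18 with LN4 replicate 1 and -1.05 and -0.98 with LN4 replicate 3. Of its 16 genes, 9 (56.2%) were non-overlapping and lower, against 20.0% of all genes. Whether the squamous and muscle genes of LN4 replicate 3 bear on its lower airway genes was not tested.

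The 2 cilium genes named by the rule were lower in both LN4 lungs. Rsph4a, a radial spoke protein, was at 7.49 and 6.89 in LN4, 8.20 and 8.46 in PC3 and 7.98 and 8.04 in Control lungs (difference -1.14, SE 0.24). Spef2, a protein of the sperm flagellum and motile cilia, was at 6.65 and 6.39 in LN4, 7.30 and 7.89 in PC3 and 7.02 and 7.54 in Control lungs (difference -1.08, SE 0.28). The LN4 values were the lowest of the 6 in both genes. They lay under the negative-control level of their arrays, 7.69 and 7.37, so the size of the differences is uncertain. For Spef2, PC3 replicate 4 and both Control lungs also lay under the level of their arrays. Of the 20 probe sets of Spef2, 13 were non-overlapping and lower.

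**Figure D4:**
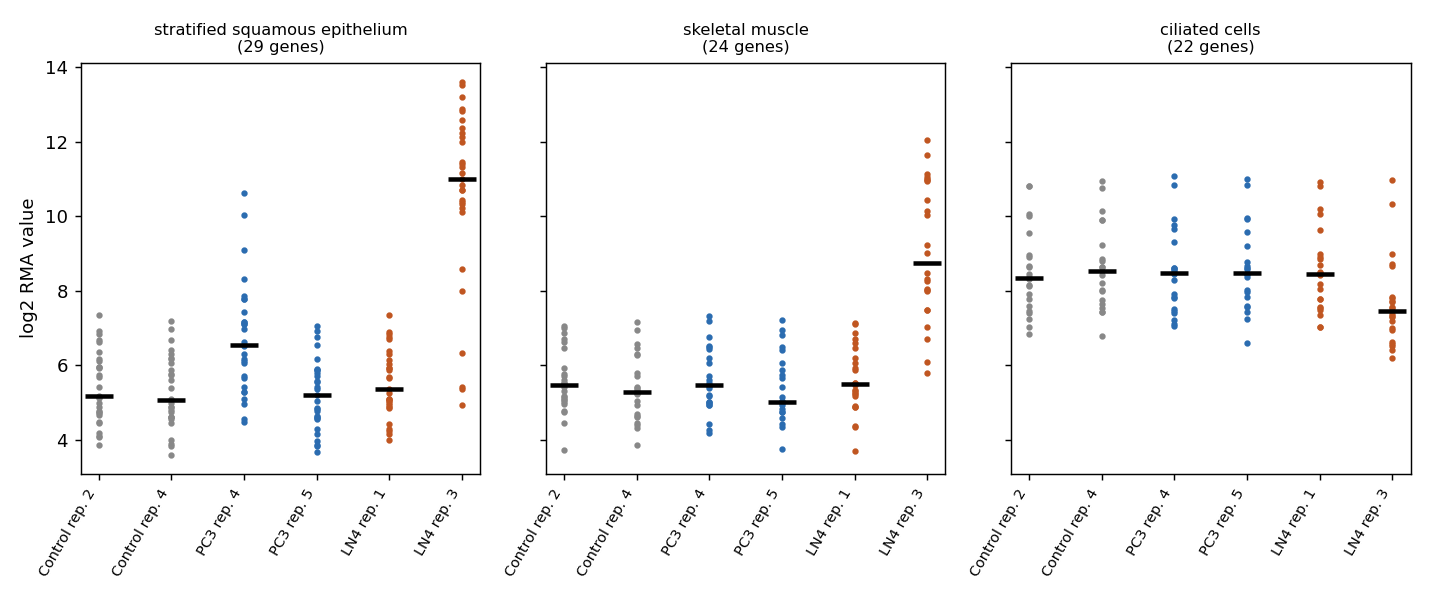
Each point is the log2 RMA value of 1 gene in 1 array for the squamous, skeletal muscle and ciliated cell lists, and black bars are medians over the genes. Squamous genes are high in LN4 replicate 3 and PC3 replicate 4, muscle genes in LN4 replicate 3 alone, and ciliated cell genes are lowest in LN4 replicate 3.

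Hypoxia and glycolysis genes, and glutathione and Nrf2 target genes, also turned with the LN4 lung. The hypoxia list, with 21 of 32 means higher, had a median of 0.11, with -0.24 and -0.12 in the pairs with LN4 replicate 1 and 0.38 and 0.48 in those with LN4 replicate 3. Ldha, lactate dehydrogenase, was at 10.32 and 11.59 in LN4 and 11.03 and 11.01 in PC3 lungs. The Nrf2 list had a median of 0.14, with -0.18 and -0.23 in the pairs with LN4 replicate 1 and 0.45 and 0.43 in those with LN4 replicate 3. Its member Gclc, the catalytic subunit of glutathione synthesis, was lower in both LN4 lungs, at 9.89 and 9.76 against 10.43 and 10.72 in PC3 and 10.22 and 10.51 in Control lungs (difference -0.75, SE 0.20).

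Mesothelial genes were lower in LN4 lungs, and most so against PC3 replicate 4. Of 14 tested genes of these cells, which line the lung surface, 13 had a lower mean and 10 (71.4%) were non-overlapping and lower, against 20.0% of all genes, with a median of -0.65. The median was -0.94 and -0.84 in the pairs with PC3 replicate 4 and -0.38 and -0.18 in those with PC3 replicate 5. Gpm6a, a membrane glycoprotein, was at 9.61 and 9.87 in LN4, 10.66 and 10.28 in PC3 and 9.32 and 9.74 in Control lungs (difference -0.73, SE 0.24). Aldh1a2, which makes retinoic acid, was at 8.50 and 8.23 in LN4, 9.50 and 8.90 in PC3 and 8.26 and 8.26 in Control lungs (difference -0.84, SE 0.24). For both genes only the PC3 lungs stood above the rest, PC3 replicate 4 the more.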

How the data were processed

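Expression was measured on Affymetrix mouse gene arrays, with biotin-labelled cRNA made, as the labels' protocols say, from 10 ug of total RNA. RMA, named in the submitters' processing notes, gave the deposited log2 values, with a software version not given in the sources used here. Per the file headers, the authors' chip report holds the percent of probe sets detected, a mean raw intensity and score values of residuals.

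The authors' gene table and the series' value table were equal for all 35556 probe sets. The 7116 control probe sets were dropped. Of the other 28440, the dimmest 25% by the mean of the 6 arrays were dropped too, and 21330 were tested. Among the 28440, 25004 carried 1 symbol, 2 several and 3434 none. Names were updated through RefSeq (GRCm38.p6), where 22271 accessions, 1412 symbols and 557 older symbols matched and 764 names were kept. The array annotation cites another build, so no gene coordinates are taken from it. Arrays have no read depth, and their number limits the precision.

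All 6 arrays entered limma 3.58.1 (R 4.3.3) with 3 group means (residual degrees of freedom 3, prior 3.885), empirical Bayes moderation, two-sided tests and Benjamini-Hochberg adjustment over 21330 probe sets at 0.05. With 2 lungs against 2, an exact two-sided permutation test cannot go below 0.333 and was not used. Gene lists (58) are described by counts and medians over each gene's brightest probe set. The fit was tested on simulated data with the spread of the real arrays, in 21330 probe sets. It called 3 of 100 probe sets changed by 1 on the log2 scale, 61 of 100 changed by 2 and 6 unchanged ones.

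The comparison, lists and rules were chosen with earlier results of these data known. Named genes are Thbs1, Psap and up to 15 genes per direction with 1 symbol, a group mean that reached the negative-control level (95th percentile) and the widest gap of at least 1.5-fold in all 4 pairs, leaving out predicted genes, and up to 4 members per list, with defining members as values. A few genes beyond this rule, Snord1c, Rny1, Rmrp, Thbs2, Thbs4, Sftpa1, Sftpb, Tgfb1, Egr1, Krt13, Ldha, Cox5a, Fasn and those of the closing section among them, were chosen after their values were seen. Figures were drawn with Python 3.11.15 and matplotlib 3.10.9.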

Additional observations from a re-analysis of the deposited data

How the results depend on the processing

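With 2 lungs per group, the count of limma calls (0) stayed at 0 under no filter, a filter on 50% of probe sets, only the 4 LN4 and PC3 arrays, trend and robust moderation, array weights, a detection block and median-centred arrays. It ranged from 0 to 715 with 1 array left out, the highest without LN4 replicate 1, and was 2593 without LN4 replicate 3 and PC3 replicate 4, where the spread rests on the 2 Control lungs and the lone arrays are assumed to vary like them. The counts at 1.5-fold in all 4 pairs (26 higher, 39 lower) were 444 and 687 at 1.2-fold and 2 and 0 at 2-fold. They were 15 and 28 at the negative-control level. In settings chosen after seeing the data, they were 249 to 1139 and 119 to 817 with 1 array left out and 2057 and 2019 with both left out, since fewer pairs then had to pass. The Thbs1 difference was -0.73 without both arrays, with 1 lung left in each group. It lay between -0.48 and -0.85 with 1 array left out, while Psap lay between -0.28 and -0.38. Of 58 list medians, 31 kept their sign in all 7 settings and 27 did not. No paired analysis was possible because the LN4 and PC3 groups share no replicate number. Probe sets under the negative-control level, 7.37 to 7.69 by array, cannot be told from background.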

Other observations

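Further probe sets differed at least 1.5-fold in all 4 pairs, and the genes named here were chosen after their values were seen. Cybb, the catalytic subunit of the phagocyte NADPH oxidase, was at 9.35 and 9.47 in LN4, 10.20 and 10.07 in PC3 and 9.73 and 10.04 in Control lungs. Bmp5, a bone morphogenetic protein, was at 8.48 and 8.25 in LN4, 9.07 and 9.43 in PC3 and 8.70 and 9.13 in Control lungs. Both LN4 lungs were the lowest of the 6 for both genes. Cldn3, a claudin of epithelial tight junctions, was at 9.08 and 9.02 in LN4, 9.73 and 9.68 in PC3 and 9.23 and 9.48 in Control lungs. Gpam, which starts glycerolipid synthesis in mitochondria, was at 9.16 and 9.31 in LN4, 9.92 and 9.91 in PC3 and 9.26 and 9.81 in Control lungs. Cldn3 kept the Control lungs between the groups, while for Gpam 1 Control lung lay among the LN4 lungs. Pdk4, a kinase that restrains pyruvate oxidation, was higher in LN4 lungs and dim, at 6.93 and 7.40 against 6.34 and 6.14 in PC3 and 5.97 and 6.16 in Control lungs.

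Other cell type lists had smaller differences. Alveolar macrophage genes had 15 of 19 means lower in LN4 lungs and a median of -0.21, with pair medians between -0.14 and -0.25. Itgax, the integrin CD11c, was at 8.00 and 7.86 in LN4, 8.46 and 8.65 in PC3 and 8.18 and 8.30 in Control lungs (difference -0.63, SE 0.18). Alveolar type 1 genes had 16 of 18 means lower and a median of -0.26, which was -0.07 without LN4 replicate 3 and -0.44 without LN4 replicate 1. Cldn18, a claudin of lung epithelium, was at 11.65 and 11.40 in LN4, 12.10 and 12.23 in PC3 and 11.76 and 11.85 in Control lungs (difference -0.64, SE 0.18). Endothelial genes had 19 of 22 means lower and a median of -0.16, which was -0.04 without LN4 replicate 3. Kdr, a VEGF receptor, differed by -0.51 (SE 0.20). Erythroid genes had a median of 0.07 and circadian clock genes of -0.06. Type I interferon-stimulated genes had a median of 0.14 for LN4 replicate 1 minus PC3 replicate 4 and -0.46 for LN4 replicate 3 minus PC3 replicate 5, and MHC class I presentation genes of 0.21 and -0.42, so both lists were of opposite sign in the detection-matched pairs.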
